A study of Mus musculus with 6 samples.

Results

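The comparison set the late cultures, on days 10 and 14 of osteogenic medium, against the early cultures, on days 0 and 1. It used 4 of the 6 arrays of a time course in adipose-derived mesenchymal stem cells. These are stromal cells that can be grown from fat and turned towards bone, fat or cartilage cells in culture. Fat tissue, dorsal and inguinal, of C57BL/6 mice was their source, and they were kept in DMEM/F12 growth medium with 10% fetal bovine serum. Once plated, they were switched to osteogenic medium with 0.1 µM dexamethasone, 50 µM ascorbic acid, 10 mM β-glycerophosphate, DMSO and 15% fetal bovine serum, both media with streptomycin and penicillin. Total RNA of each day was hybridised to 1 Illumina bead array, which reads each transcript as the brightness of a probe. The arrays are neighbouring days and not true replicates: the 2 arrays of a state come from different times in the medium. All p-values therefore measure the late against early difference against the change between neighbouring days. The day 0 array was taken at the switch and the day 1 array after 1 day in the medium, so the early state holds both untreated cells and cells at the start of treatment. No array came from cells kept without the medium for the same time, so the medium and time in culture cannot be told apart. No permutation test of 2 arrays against 2 could fall below p = 0.333.

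Osteogenic medium works through several routes. Dexamethasone activates the glucocorticoid receptor, a transcription factor that switches on stress, metabolic and anti-inflammatory genes. Ascorbic acid is the cofactor of the enzymes that hydroxylate collagen, and β-glycerophosphate supplies phosphate for mineral. Stromal cells that mature in such a medium usually leave the cell cycle, and they can enter the osteoblast lineage, marked by Sp7, alkaline phosphatase and type I collagen, or the adipocyte lineage, marked by Pparg and lipid droplet proteins.

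The label of a late plateau was checked first. The step from day 10 to day 14 was the smallest of the 5 steps between neighbouring arrays, with 80 genes at least 2-fold higher on day 14 (0.961% of 8324) and 21 at least 2-fold lower (0.252%). Between days 0 and 1, with 1 day between the arrays, 323 genes were at least 2-fold higher on day 1 (3.97% of 8133) and 297 at least 2-fold lower (3.65%). The steps from day 1 to day 3, with 722 genes higher on day 3 (8.69%) and 467 lower (5.62%), and from day 3 to day 6, with 564 higher on day 6 (6.69%) and 504 lower (5.98%), were the largest. Between days 6 and 10, 107 genes were higher on day 10 (1.29%) and 354 lower (4.28%). Among the 7140 genes detected on all 4 arrays, the median absolute log2 difference was 0.55 between the late and early means, 0.17 between days 14 and 10 and 0.27 between days 1 and 0. In 95.73% of the 2948 called genes among these, the step from day 10 to day 14 was under 50% of the late minus early difference. A call needs a difference that is large against the steps within the states, so this share was largely set in advance. By the step counts and the medians the late pair was close together, while the early pair held a first change of its own.

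**Figure D1:**
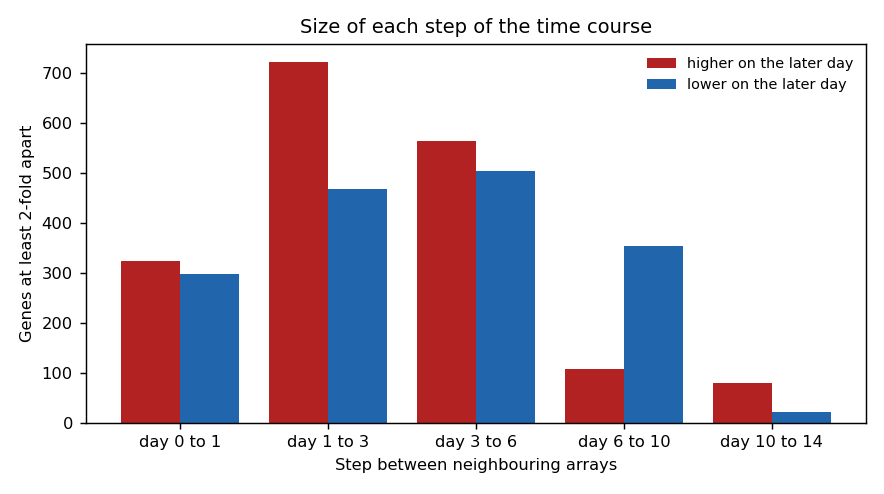
Number of genes at least 2-fold apart between neighbouring arrays, among genes detected on either array; red bars are genes higher on the later day and blue bars genes lower on the later day. The steps span 1, 2, 3, 4 and 4 days, and the last has the fewest genes, 101 in all against 1189 between days 1 and 3.

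The cells carried the markers of their label in both states. Of 15 stromal cell markers, 13 had a named probe and all 13 were detected in both states. Names covered only probes of the authors' series matrix, which had a detection p under 0.05 on at least 1 array. Detection of a named probe was thus partly set in advance. The summed normalized signal of these 13, on a linear scale, was 221115 and 238448 on days 10 and 14, against 287454 and 233721 on days 0 and 1. Among them 2 rose (Pdgfra and Dcn) and 6 fell (Thy1, Col1a1, Col1a2, Col3a1, Cd44 and Eng). Pdgfra, a receptor of mesenchymal progenitors, rose by 1.92 ± 0.162 on the log2 scale (adjusted p = 6.9e-04). Dcn, the matrix proteoglycan decorin, rose by 2.35 ± 0.303, while Thy1, a surface antigen of stromal cells, differed by -1.46 ± 0.344 and the collagen gene Col1a1 by -3.34 ± 0.213. Vim, the intermediate filament of mesenchymal cells, stood at 15.64 and 15.65 on days 10 and 14, against 15.56 and 15.53 on days 0 and 1. Few markers of other cell types had a probe with a gene name, and those of lymphocytes, mast cells and erythroid cells had none. Probes outside the authors' series matrix had no name, so a missing marker need not lack a probe on the array. The 3 of 15 macrophage markers measured, Lyz2, Cd14 and Laptm5, summed to 715 and 694 in the late state, against 379 and 380 in the early state. Among them Cd14 rose by 1.87 ± 0.584 (adjusted p = 0.0433), and Lyz2 differed by 0.25 ± 0.45 and was not called (adjusted p = 0.676). Cd14 was not well above background on day 0, which partly sets the size of its rise. Laptm5 was not well above background on any of the 4 arrays. Among the 4 of 12 endothelial markers, Emcn was not well above background and Egfl7 fell by 2.78 ± 0.289 on the log2 scale. Egfl7 was not well above background on day 10, which partly sets the size of its fall. Tek differed by 1.29 ± 0.445 (adjusted p = 0.058) and Kdr by -0.28 ± 0.225 (adjusted p = 0.357), and neither was called. Of 10 mature adipocyte markers, Adipoq, Plin4, Fabp4 and Car3 were measured and all 4 rose, and they summed to 10851 and 11797 in the late state, against 182 and 319 in the early state. Plin4, at log2 levels of 13.23 and 13.22 on days 10 and 14, made up most of the late sum, while Adipoq, Fabp4 and Car3 were dimmer. The 2 Schwann cell markers, Mbp and Ncam1, summed to 2530 and 2409, against 9300 and 8752. They went opposite ways, with a difference of 1.30 ± 0.332 in Mbp (adjusted p = 0.0233) and of -2.15 ± 0.16 in the brighter Ncam1 (adjusted p = 5.0e-04). The bone cell marker Ifitm5 was not well above background in either state. The arrays measure RNA of whole cultures, so fewer cells of a type and less RNA per cell cannot be told apart.

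With limma and an adjusted p under 0.05, 1969 of 8802 tested genes (22.4%) were higher in the late state and 1916 (21.8%) were lower, 44.1% in all. At least 2-fold apart were 1360 called genes higher in the late state (15.5%) and 1203 lower (13.7%). The median difference over all tested genes was 0.00 on the log2 scale and the median standard error 0.23. Late and early arrays did not overlap in 3366 genes that were higher in the late state (38.2%) and 3363 that were lower (38.2%). There were 459 genes detected on both late arrays and neither early array, and 272 detected on both early arrays and neither late array. The arrays differed in how many genes they detected, with 7936 and 8278 on days 10 and 14, against 7844 and 7843 on days 0 and 1. The lowest level detected was also lower on both late arrays than on either early array. This favours detection in the late state only, so the excess of such genes cannot be read as a change in expression alone. The counts of called genes changed with the array left out. Such a fit has 1 array in 1 state, which is assumed to vary like the pair that remains, so its spread comes from that pair alone. Without day 10 there were 655 genes higher and 547 lower, and without day 14 there were 678 higher and 629 lower. Without day 0 they were 2477 and 2410, and without day 1 they were 2259 and 2182. A gene detected in 1 state only had to differ in order to be tested, so counts over members detected on all 4 arrays stand beside the others, where 19.9% of 7140 genes rose and 21.4% fell. All levels below are normalized log2 intensities of 1 probe per gene and serve to compare arrays, not genes. Where only 1 array of a state was detected, background partly sets the size of the difference.

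**Figure D2:**
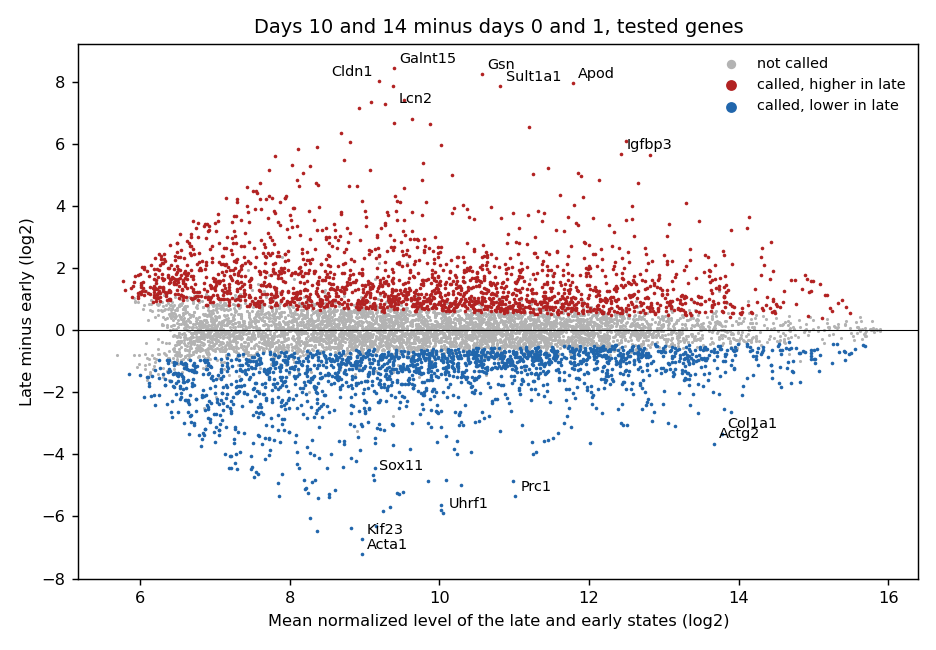
Late minus early difference (log2, vertical axis) against the mean of both states (log2, horizontal axis) for the 8802 tested genes; red points are called higher in the late state, blue points called lower and grey points not called. The 1969 red and 1916 blue points are of similar number. Among genes detected on all 4 arrays the points run from -5.89 (Uhrf1) to 7.94 (Apod), and the size of points not detected in 1 state is set by background.

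Among genes detected on all 4 arrays, the 15 largest rises included several secreted proteins. The lipid carrier gene Apod (apolipoprotein D) had log2 levels of 15.84 and 15.67 on days 10 and 14, against 8.46 and 7.17 on days 0 and 1. The late arrays lay far above both early ones, at a difference of 7.94 ± 0.407 (limma adjusted p = 2.3e-04). Selenbp1, a selenium-binding protein, stood at 12.54 and 12.42 in the late state, against 7.05 and 7.10 in the early state, 42.2-fold higher (difference 5.40 ± 0.19, adjusted p = 1.1e-04). Its 2 early arrays were within 0.1 of each other, so that the rise began after day 1. Itgbl1, an integrin-beta-like secreted protein, had 13.81 and 14.30 in the late state, against 8.45 and 9.22 in the early state, and rose by 5.22 ± 0.311. Selenop, the plasma carrier of selenium, had 14.41 and 14.35, against 8.92 and 9.74, and rose by 5.05 ± 0.286. Both genes were already somewhat higher on day 1 than on day 0, yet the states did not overlap. Ndrg2, a growth-inhibiting gene, rose by 4.75 ± 0.454, Xdh, which codes for xanthine dehydrogenase, by 4.28 ± 0.299, and the hydrogen peroxide-forming oxidase Nox4 by 4.11 ± 0.317. Apod, Cdkn1c, Igfbp3, Hp and Mgp exceeded 50% of the highest signal on a late array, so the size of their rise is not resolved.

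Genes that appeared only in 1 state have a bound in place of a fold, since the other state was not well above background. The bound takes the brighter mean over the lowest level detected on the dim arrays, or the gene's own level where that is higher. Gsn, which codes for the actin-severing protein gelsolin, had 14.86 and 14.51 on days 10 and 14, against 6.33 and 6.55 on days 0 and 1, at least 210-fold higher on its brightest probe (adjusted p = 6.5e-05). A further Gsn probe, detected on all 4 arrays, had 9.41 and 9.27, against 8.88 and 8.66, a difference of 0.57 that was not called (adjusted p = 0.0695). Galnt15, an enzyme that starts O-linked glycan chains, had 13.997 and 13.21 in the late state, against 4.995 and 5.35 in the early state, at least 99.3-fold higher, and its 3 further probes differed by 2.07 to 8.53. On the brightest probes of both genes the day 14 array was a little lower than the day 10 array. Cldn1, a tight junction protein, was at least 74.6-fold higher, with 13.19 and 13.19, against 5.24 and 5.12. Cldn10, of the same family, was at least 61.8-fold higher on its brightest probe. Further Cldn10 probes differed by 6.135 and 5.318, both called, and a probe detected on 1 of the 4 arrays differed by -0.42 (adjusted p = 0.299). On the side of the falls, Acta1, the skeletal muscle actin gene, had 5.26 and 5.44 in the late state, against 13.25 and 11.89 in the early state, at least 56.2-fold lower (adjusted p = 3.4e-04). It was not well above background on either late array. Cck, the peptide hormone cholecystokinin, was at least 37.9-fold lower, with 5.43 and 5.83, against 11.04 and 12.96.

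**Figure D3:**
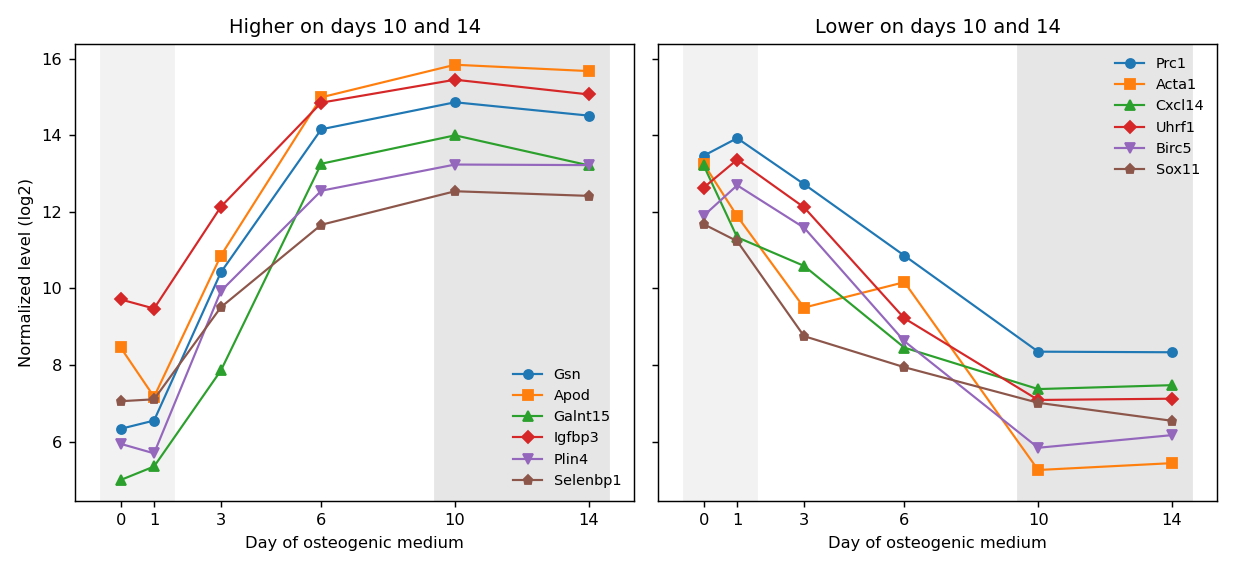
Normalized log2 level (vertical axis) of 6 genes higher in the late state (left) and 6 genes lower in the late state (right) on each of the 6 days of osteogenic medium (horizontal axis); each point is 1 array, and grey bands mark days 0 and 1 and days 10 and 14. Gsn, Galnt15 and Plin4, each shown by its brightest probe, are not detected on days 0 and 1 and come near their late level by day 6, while Birc5 and Uhrf1 are highest on day 1 and reach their low level by day 10.

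Cell division genes fell. Of 39 listed mitosis and spindle genes, 27 were tested, of which 27 fell and 0 rose, with a median log2 difference of -4.83. Of these members, 7 were detected on all 4 arrays, of which 7 fell and 0 rose. Among 37 listed genes of DNA replication and nucleotide supply, 32 were tested, of which 31 fell and 0 rose, with a median of -2.46, and Pcna, the sliding clamp of DNA polymerase, missed the threshold at -0.998 ± 0.386 (adjusted p = 0.0799). Of the 21 detected on all 4 arrays, 20 fell and 0 rose. Kif23, a kinesin motor needed to separate daughter cells, had 5.34 and 5.84 on days 10 and 14, against 11.91 and 12.74 on days 0 and 1, at least 47.5-fold lower on its brightest probe (adjusted p = 2.3e-04). A further Kif23 probe, detected on all 4 arrays, differed by -1.22 (adjusted p = 0.00767). The kinesin Kif2c, which takes microtubules apart, had 5.09 and 5.17 in the late state, against 11.20 and 11.97 in the early state, at least 28.4-fold lower. On these brightest probes neither was well above background on a late array, and each was higher on day 1 than on day 0. Birc5, the mitotic protein survivin, was at least 46.5-fold lower, the mitotic kinase Aurka at least 42-fold and Cdc20, which switches on the anaphase ubiquitin ligase, at least 43-fold. Plk1, another mitotic kinase, remained above background, with 7.22 and 7.19 in the late state, against 12.45 and 13.23 in the early state, 49.8-fold lower (adjusted p = 2.3e-04). Prc1, which bundles the microtubules of the dividing spindle, had 8.35 and 8.33, against 13.46 and 13.92, a difference of -5.35 ± 0.217. In both genes the late arrays were within 0.1 of each other. Cenpa, the histone that marks centromeres, differed by -4.86 ± 0.364 and Cdca8, of the chromosomal passenger complex, by -4.82 ± 0.276. Anln, which codes for the cytokinesis protein anillin, differed by -3.99 ± 0.393 and Cenpw, of the kinetochore, by -3.84 ± 0.308.

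In DNA replication, Uhrf1, which maintains DNA methylation through replication, had 7.09 and 7.12 in the late state, against 12.63 and 13.36 in the early state, 59.5-fold lower (adjusted p = 2.3e-04). Tk1, the nucleotide salvage enzyme thymidine kinase, was at least 23.3-fold lower, with 5.06 and 5.43, against 10.73 and 11.87. Mcm5, a subunit of the replicative helicase, had 7.84 and 7.74, against 12.23 and 13.34, 31.9-fold lower. Each of these was higher on day 1 than on day 0 and low on both late arrays. Chaf1b, which loads histones onto new DNA, was at least 11.9-fold lower. These falls were late: on day 3 Uhrf1 had covered 14.9% of its change and Tk1 7.06%, and on day 6 64.1% and 67.4%. Mitosis genes had covered a median of 14.7% on day 3 and 62.8% on day 6.

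Promoters of the fallen cell division genes are shown because the members share short sequences known from cell cycle promoters. The windows run from 250 bases before to 50 bases after the gene start, from RefSeq on GRCm38.p6, and are printed 5′ to 3′ on the gene's strand. Capitals mark CCAAT (or ATTGG on the other strand), bound by the factor NF-Y, and TTTGAA, known as the cell cycle genes homology region. In Uhrf1 capitals mark TTTCGCG, a form of the E2F site.
Kif23 (chr9:61946750-61947049, minus strand): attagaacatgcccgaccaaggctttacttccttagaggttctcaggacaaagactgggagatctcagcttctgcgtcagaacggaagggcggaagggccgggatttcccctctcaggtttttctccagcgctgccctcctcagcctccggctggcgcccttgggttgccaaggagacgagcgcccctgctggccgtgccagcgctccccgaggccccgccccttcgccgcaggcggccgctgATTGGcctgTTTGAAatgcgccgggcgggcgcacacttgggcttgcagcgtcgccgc
Aurka (chr2:172370521-172370820, minus strand): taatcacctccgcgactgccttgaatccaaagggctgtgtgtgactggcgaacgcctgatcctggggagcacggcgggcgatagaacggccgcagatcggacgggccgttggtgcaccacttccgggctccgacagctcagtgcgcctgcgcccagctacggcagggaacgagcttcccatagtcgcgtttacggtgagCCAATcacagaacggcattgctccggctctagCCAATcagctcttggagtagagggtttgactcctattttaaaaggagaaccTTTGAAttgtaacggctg
Cdca3 (chr6:124829926-124830225, plus strand): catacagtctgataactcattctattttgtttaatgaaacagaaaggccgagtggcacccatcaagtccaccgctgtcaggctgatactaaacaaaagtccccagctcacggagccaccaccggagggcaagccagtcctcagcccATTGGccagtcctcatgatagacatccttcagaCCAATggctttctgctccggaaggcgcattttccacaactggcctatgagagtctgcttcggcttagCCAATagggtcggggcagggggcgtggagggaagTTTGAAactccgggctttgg
Uhrf1 (chr17:56304063-56304362, plus strand): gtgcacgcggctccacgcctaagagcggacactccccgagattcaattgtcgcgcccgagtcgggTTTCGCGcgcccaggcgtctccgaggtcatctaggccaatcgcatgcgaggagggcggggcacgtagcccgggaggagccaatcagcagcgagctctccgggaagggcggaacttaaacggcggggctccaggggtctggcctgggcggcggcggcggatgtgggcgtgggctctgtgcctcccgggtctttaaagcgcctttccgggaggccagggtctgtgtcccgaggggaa
Both strands were searched in every promoter listed, and a gene can have more than 1, of which each counts once however many matches it holds or however they overlap. CCAAT was in 17 of 23 promoters of fallen mitosis genes (73.9%) and in 37.4% of all 32851 promoters of the same length. TTTGAA was in 18 of these 23 promoters (78.3%), against 17.9% of all promoters. TTTCGCG was in 8 of 34 promoters of fallen replication genes (23.5%), against 0.849% of all promoters. A match describes the letters only and is neither a binding site nor a cause.

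Inhibitors of the cell cycle rose over the same interval. Of 22 listed cyclin-dependent kinase inhibitors and growth arrest genes, 20 were tested, of which 13 rose and 1 fell (median 1.22), and Rbl1, the one that fell, codes for a pocket protein that cycling cells make. Detected throughout were 16, of which 10 rose and 1 fell. Cdkn1c, the kinase inhibitor p57, had 15.69 and 15.40 on days 10 and 14, against 8.78 and 10.12 on days 0 and 1, a difference of 6.10 ± 0.422 (adjusted p = 4.4e-04). Gas1, a growth arrest gene, had 10.18 and 10.41, against 6.42 and 7.34, 10.7-fold higher (adjusted p = 0.00109). Both were already rising by day 1, and Gas1 had covered 88.8% of its change on day 3. Gas1 was not well above background on day 0, which partly sets the size of its rise. Txnip, an inhibitor of glucose uptake and thioredoxin, had 15.77 and 15.74, against 12.73 and 12.17, and rose by 3.30 ± 0.205 in a range where the brightest signals limit the size. Trp53inp1, a target of p53, rose by 2.64 ± 0.421 (adjusted p = 0.00495) and lost its call without day 10 (adjusted p = 0.0564). Cdkn1a, the inhibitor p21, did not pass, at 0.19 ± 0.164.

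Glucocorticoid receptor targets rose, and no tested one fell. Of 28 listed members, 25 were tested, of which 23 rose and 0 fell, with a median log2 difference of 2.54. The 18 members detected on all 4 arrays held 16 of these rises. Sult1a1, a sulfotransferase, had 14.76 and 14.72 on days 10 and 14, against 5.40 and 8.38 on days 0 and 1, a difference of 7.85 ± 0.87 (adjusted p = 0.00153). Day 1 already stood well above day 0, which was not well above background, and both late arrays were close together. Lcn2, the iron-carrier-binding lipocalin, had 12.85 and 13.77 in the late state, against 5.16 and 5.76 in the early state, at least 80.8-fold higher (adjusted p = 2.3e-04). Hif3a, an oxygen-sensing factor that glucocorticoids raise, had 12.58 and 12.44, against 5.12 and 5.57, at least 46.5-fold higher on its brightest probe. A further Hif3a probe, detected on all 4 arrays, differed by -0.39 (adjusted p = 0.299), so the rise was seen on 1 of 2 probes. Pdk4, a kinase that shuts pyruvate dehydrogenase, had 14.52 and 14.23, against 8.59 and 10.22, and rose by 4.97 ± 0.499 (adjusted p = 0.00113). The zinc-finger factor Klf15 had 10.83 and 10.86, against 7.29 and 7.11, 12.5-fold higher. Both states of Klf15 were tight and did not overlap. The list's median share of the change was 48.1% on day 3 and 91.1% on day 6. A form of the glucocorticoid response element was in 3 of 32 promoters of the risen members (9.38%), against 0.414% of all promoters. These 3 belong to 2 of the 19 members with a promoter, Fam107a and Sgk1.

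Complement and acute phase genes rose as a group. Of 29 listed members, 18 were tested, of which 15 rose and 0 fell, with a median of 3.51, the highest of the 31 lists. Of the 8 detected on all 4 arrays, 7 rose and 0 fell. Cp, the copper-carrying ferroxidase ceruloplasmin, had 11.56 and 11.38 on days 10 and 14, against 6.38 and 5.61 on days 0 and 1, at least 22.6-fold higher (adjusted p = 2.7e-04). Cfb, a factor of the alternative complement pathway, had 10.83 and 11.61, against 6.66 and 6.48, at least 19-fold higher. C2, of the classical pathway, had 13.61 and 13.95, against 9.81 and 9.06, 20.3-fold higher (adjusted p = 3.9e-04). In all 3 genes the late arrays lay above both early arrays. Hp, the haemoglobin-binding protein haptoglobin, had 15.70 and 15.57, against 8.80 and 11.20, and rose by 5.64 ± 0.704. It was higher on day 1 than on day 0. The summed level of the 3 measured macrophage markers was also higher in the late state, as given above. Only Cd14 among them was called, and the part of macrophages in these rises was not tested.

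Interferon response and antigen presentation genes rose early and stayed up. Of 49 listed members, 34 were tested, of which 25 rose and 0 fell, with a median of 1.42. Detected throughout were 23, of which 17 rose and 0 fell. Ifi205, an interferon-inducible DNA-sensing gene, had 13.82 and 13.70 on days 10 and 14, against 8.25 and 9.24 on days 0 and 1, 32.3-fold higher (adjusted p = 3.9e-04). Gbp3, a guanylate-binding protein, had 10.72 and 11.19, against 7.99 and 7.17, 10.4-fold higher (adjusted p = 0.00109). The immunoproteasome subunit Psmb9 had 9.44 and 9.89, against 6.41 and 6.79, at least 6.47-fold higher. Day 1 was lower than day 0 in Gbp3 and higher in Ifi205 and Psmb9, and the states did not overlap in any of the 3. Irgm2, an immunity-related GTPase, rose by 3.01 ± 0.313. Gbp3 stood at 11.22 and 11.26 on days 3 and 6 and Irgm2 at 11.84 and 11.63, so that both were at or above their late level by day 3. Over the 20 members called and at least 2-fold apart, the median share of the change was 103% on day 3 and 102% on day 6, against 35.8% and 81.9% over all 2563 such genes. The promoter of Ifi205 is shown with the core of the interferon-stimulated response element in capitals on either strand.
Ifi205 (chr1:174031706-174032005, minus strand): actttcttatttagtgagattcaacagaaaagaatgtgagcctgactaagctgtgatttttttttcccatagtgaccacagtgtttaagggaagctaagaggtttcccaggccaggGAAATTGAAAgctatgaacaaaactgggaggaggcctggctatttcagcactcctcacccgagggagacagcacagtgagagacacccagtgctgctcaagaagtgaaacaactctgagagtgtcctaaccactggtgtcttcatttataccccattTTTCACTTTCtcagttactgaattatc
This motif was in 12 of 27 promoters of the risen members (44.4%), against 3.44% of all promoters.

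Among chemokine and cytokine genes falls outnumbered rises. Of 35 listed genes of chemokines, cytokines and prostaglandin synthesis, 23 were tested, of which 14 fell and 3 rose, with a median of -2.02. Among the 13 members detected on all 4 arrays, 6 fell and 2 rose, with a median of -0.58. Cxcl14, a chemokine, had 7.37 and 7.47 on days 10 and 14, against 13.21 and 11.34 on days 0 and 1, 28.9-fold lower (adjusted p = 0.00181). It was lower on day 1 than on day 0, and lower again on both late arrays. Il6, the cytokine interleukin-6, had 5.17 and 5.15, against 9.08 and 9.37, at least 5.53-fold lower (adjusted p = 3.5e-04). The neutrophil attractant Cxcl1 had 9.07 and 9.60, against 12.83 and 13.69, 15.2-fold lower. Cxcl5, a related attractant, was at least 6.37-fold lower in the late state, and it was higher on days 1 and 3 than on day 0. Its call was lost when either late array was left out (highest adjusted p = 0.0612) and with days 3 and 6 in the fit (0.0682). The B cell attractant Cxcl13 went the other way, with 10.41 and 10.47, against 5.91 and 5.67, at least 11.1-fold higher. The other 2 that rose were Cxcl12, which retains progenitors in tissue, at 3.15 ± 0.615, and Tnfaip3, a brake on NF-κB, at 1.29 ± 0.314.

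Genes of the osteoblast lineage went both ways. Of 25 listed osteoblast transcription factors, 16 were tested, of which 5 rose (31.2%) and 3 fell (18.8%), near the background of 22.4% and 21.8%, with a median of 0.18. Of the 12 detected on all 4 arrays, 5 rose and 0 fell, with a median of 0.61. Sox11, a transcription factor of progenitor cells that the series' title names as an inhibitor of osteoblast differentiation, had 7.01 and 6.54 on days 10 and 14, against 11.68 and 11.23 on days 0 and 1. Both late arrays lay far below both early arrays, 25.6-fold lower (difference -4.68 ± 0.269, adjusted p = 2.8e-04). Day 14 was not well above background, which partly sets the size of the fall. Its other 2 probes, each detected on 2 of the 4 arrays, differed by -4.04 and -3.84. Sp7, the factor osterix that commits cells to bone, had 6.35 and 7.23, against 10.38 and 11.60, 18.4-fold lower (adjusted p = 0.0016). It was higher on day 1 than on day 0. Day 10 was not well above background, which partly sets the size of the fall and of the step to day 14. Fosl1, an AP-1 factor, fell by 2.07 ± 0.503, and lost its call without day 14. It was not well above background on day 14, which partly sets the size of its fall. These 3 were the fallen members. Fos, of the same family as Fosl1, had 14.79 and 14.59, against 12.93 and 12.96, and rose by 1.75 ± 0.144 (adjusted p = 6.5e-04). The other 4 that rose were Maf at 1.61 ± 0.331, Zfp521 at 1.48 ± 0.337, Nfatc1 at 1.22 ± 0.218 and Twist1, a factor of mesenchymal progenitors, at 0.70 ± 0.194. Runx2, Bglap, Spp1 and Ibsp were not analysed here.

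Of 30 listed genes of osteoblast and mineralised matrix, 16 were tested, with a median of -0.22. Of these, 6 fell (37.5%) and 3 rose (18.8%), against 21.8% and 22.4% of all tested genes. Detected throughout were 10, of which 4 fell and 1 rose, with a median of -0.35. Alpl, the alkaline phosphatase that frees phosphate for mineral, had 5.83 and 6.03 in the late state, against 9.18 and 9.64 in the early state, at least 6.29-fold lower (adjusted p = 5.6e-04). It was not well above background on either late array, and on day 3 it still stood at 9.58. Col1a1, the main collagen chain of bone, had 12.08 and 12.15, against 15.74 and 15.16, a difference of -3.34 ± 0.213 (adjusted p = 3.6e-04). Its level on days 3 and 6 was 15.67 and 15.19, near the early one, and its early signals were among the brightest, which limits the size of the difference. Slc20a1, a phosphate transporter, had 7.52 and 7.54, against 11.40 and 11.05, 12.9-fold lower. The risen members were Omd, a proteoglycan of mineralised matrix, Mgp, an inhibitor of calcification, and Smpd3, a sphingomyelinase needed for bone mineral. Omd had 10.92 and 10.49, against 5.91 and 5.37, at least 13.3-fold higher (adjusted p = 2.8e-04). Mgp had 15.53 and 15.14, against 10.60 and 11.89, and rose by 4.09 ± 0.412, and Smpd3 rose by 3.20 ± 0.783. Smpd3 was not detected on all 4 arrays, so background partly sets the size of its rise. Among 24 listed chondrocyte genes, 9 were tested, of which 4 fell (44.4%) and 2 rose (22.2%), the rises near the background. Comp, a cartilage matrix protein, had 12.74 and 13.61, against 10.30 and 9.58, and rose by 3.24 ± 0.366. The cartilage factor Sox5, the other that rose, did so by 2.89 ± 0.387. A subset of 7 was detected on all 4 arrays, of which 3 fell and 2 rose. Chst11, which sulfates chondroitin, was at least 5.05-fold lower and the factor Sox6 differed by -1.31 ± 0.208, a call that was lost when either late array was left out (highest adjusted p = 0.0844). Matn2 and Col9a3, both of cartilage matrix, were the other 2 that fell, at -0.99 ± 0.256 and -0.80 ± 0.225. Sox9, the leading regulator of cartilage formation, had 14.03 and 13.72, against 13.39 and 12.45, and did not pass at 0.95 ± 0.316 (adjusted p = 0.0518).

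Among collagens and the enzymes that process them falls outnumbered rises, while other matrix genes split evenly. Of 40 listed collagen genes, 34 were tested, of which 17 fell and 2 rose, with a median of -0.68. Col3a1, a fibrillar collagen of soft tissue, had 11.22 and 12.07 on days 10 and 14, against 14.29 and 13.76 on days 0 and 1, 5.24-fold lower (adjusted p = 0.00287). Day 10 was the lowest of the 6 arrays, and days 3 and 6 stood at 14.78 and 13.83. Loxl2, a collagen-crosslinking oxidase, fell by 2.61 ± 0.258. Col18a1, a basement membrane collagen, had 12.15 and 12.41, against 9.93 and 9.71, and rose by 2.46 ± 0.198, with a higher level on day 6, at 13.51, and Col14a1, a collagen that decorates fibrils, rose by 0.99 ± 0.308. The 13 members called and at least 2-fold apart had covered a median of 5.47% of their change on day 3 and 42.7% on day 6. Of 48 listed proteoglycan, elastic fibre and matricellular genes, 43 were tested. Of these, 14 rose and 14 fell, 32.6% each, against 22.4% and 21.8% of all tested genes. Detected throughout were 32, of which 10 rose and 12 fell, with a median of -0.10. Tnc, which codes for tenascin-C, had 9.49 and 9.75, against 13.19 and 13.17, 11.8-fold lower (adjusted p = 2.3e-04). Ccn4, a matricellular Wnt target, fell by 3.48 ± 0.381 and Has1, a hyaluronan synthase, was at least 2.94-fold lower.

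Contractile genes were lower in the late state. Of 33 listed contractile and serum response factor targets, 29 were tested, of which 21 fell and 0 rose, with a median of -1.05. On all 4 arrays 28 were detected, and of these 20 fell and 0 rose. Actg2, a smooth muscle actin, had 11.26 and 12.42 on days 10 and 14, against 15.54 and 15.45 on days 0 and 1, a difference of -3.65 ± 0.358 (adjusted p = 0.00107). Tagln, the actin-binding protein transgelin, had 8.88 and 9.99, against 13.26 and 12.81, 12.1-fold lower (adjusted p = 0.00131). Ankrd1, a stretch-responsive gene, had 6.09 and 7.02, against 10.46 and 10.66, 16-fold lower. In all 3 genes day 14 stood above day 10 and below both early arrays. Ankrd1 was not well above background on day 10, which partly sets the size of its fall and of that step. Tubb6, a tubulin, fell by 3.08 ± 0.205. The order of the middle days differed from that of most groups: the median share of the change was 58.7% on day 3 and 47% on day 6, and Tagln stood at 10.79 and 11.14. Actg2 and Tubb6 exceeded 50% of the highest signal on at least 1 array, which limits the size of their difference. Acta1, the only measured marker of skeletal muscle, fell with them, and the 3 measured mural cell markers summed to 651 and 1520 in the late state, against 1468 and 842 in the early state. Their part in these falls was not tested.

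Among 29 listed matrix proteases and inhibitors, 22 were tested, of which 10 rose and 3 fell, with a median of 1.03. Of the 17 detected on all 4 arrays, 8 rose and 1 fell. Timp4, a metalloproteinase inhibitor, had 9.31 and 10.25 in the late state, against 5.31 and 5.29 in the early state, at least 7.02-fold higher (adjusted p = 5.8e-04). Plaur, the urokinase receptor, had 6.23 and 6.33, against 10.59 and 10.86, at least 15.6-fold lower (adjusted p = 2.3e-04). The arrays of each state were close together in Plaur, and in Timp4 day 14 was above day 10. The other 2 that fell were Adamts4, a proteoglycan-cleaving protease, at -3.09 ± 0.388, and the inhibitor Timp3, at -1.99 ± 0.516. Adamts4 was not well above background on day 10, which partly sets the size of its fall. Serpina3n, a serine protease inhibitor, had 15.62 and 15.64, against 11.72 and 14.25. Its day 1 array stood nearer to the late arrays than to day 0, the late signals were among the brightest, the difference was 2.64 ± 0.734, and without day 0 it was 1.38. Its call was lost when either late array was left out (highest adjusted p = 0.145).

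Among fat cell genes rises outnumbered falls, and the measured mature adipocyte markers were among the rises. Of 37 listed adipocyte regulators and lipid storage genes, 25 were tested, of which 13 rose and 4 fell, with a median of 1.19. Detected throughout were 19, of which 7 rose and 4 fell, with a median of 0.45. Plin4, a coat protein of lipid droplets, had 13.23 and 13.22 on days 10 and 14, against 5.94 and 5.69 on days 0 and 1, at least 76.4-fold higher (adjusted p = 6.5e-05). Adipoq, the adipokine adiponectin, had 9.32 and 10.12, against 5.42 and 5.55, at least 6.74-fold higher (adjusted p = 5.5e-04). Apoe, a lipid-carrying apolipoprotein, had 12.86 and 12.64, against 5.48 and 5.33, at least 54.9-fold higher. None of these 3 was well above background on an early array, and each was detected on both late arrays. Pparg, the master regulator of adipocytes, had 10.16 and 10.41, against 8.55 and 9.53, a difference of 1.24 ± 0.346 (adjusted p = 0.0304). Without day 0 its difference was 0.75, and its call was lost when either late array was left out (highest adjusted p = 0.196) and with days 3 and 6 in the fit (0.0668). The 4 that fell were the fatty acid synthase Fasn, the triglyceride-forming Dgat2, the desaturase Scd1 and the lipase Mgll, from -1.68 to -0.82. The share of mature adipocytes and its part in these rises were not tested. Of 33 listed fatty acid oxidation genes, 23 were tested, of which 13 rose and 0 fell, with a median of 0.61. Of these members, 19 were detected on all 4 arrays, of which 10 rose and 0 fell. Acaa2, the last enzyme of the mitochondrial cycle, had 14.36 and 14.10, against 11.72 and 12.29, and rose by 2.23 ± 0.23. Cpt1b, which passes fatty acids into mitochondria, was at least 3-fold higher, and the dehydrogenase Acadm rose by 1.81 ± 0.172.

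Of 35 listed genes of sterol and fatty acid synthesis, 29 were tested, of which 23 fell and 2 rose, with a median of -1.68. Of the 25 detected on all 4 arrays, 19 fell and 2 rose. Lss, which closes the sterol ring, had 8.35 and 8.56 on days 10 and 14, against 11.50 and 11.65 on days 0 and 1, 8.73-fold lower (adjusted p = 3.6e-04). Cyp51, a sterol demethylase, had 10.65 and 11.19, against 14.01 and 13.83, 7.99-fold lower (adjusted p = 5.0e-04). Fdps, which makes farnesyl diphosphate, had 10.89 and 11.85, against 14.24 and 14.38, 7.68-fold lower. The early arrays of these 3 enzymes nearly coincided, and day 14 lay above day 10 in each. Hsd17b7, another enzyme of the pathway, fell by 2.77 ± 0.244. The fall began late: over the 19 members called and at least 2-fold apart, the median share of the change was -9.55% on day 3, so that they were on balance a little higher than in the early state, and 65.2% on day 6. The 2 that rose were Insig2, which retains the sterol sensor in the endoplasmic reticulum, at 0.74 ± 0.18, and the acetyl-CoA synthetase Acss2, at 0.89 ± 0.204. TCACNCCAC, a form of the sterol regulatory element, was in 1 of 21 promoters of the fallen members (4.76%), against 1.24% of all promoters.

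Among growth factor systems, that of the insulin-like growth factors had rises and no falls. Of 22 listed members, 18 were tested, of which 9 rose and 0 fell, with a median of 0.84. Detected throughout were 16, of which 8 rose and 0 fell. Igfbp3, a binding protein that holds these factors outside the cell, had 15.45 and 15.06 on days 10 and 14, against 9.71 and 9.47 on days 0 and 1, a difference of 5.66 ± 0.201 (adjusted p = 1.1e-04). Stc2, a stanniocalcin that inhibits the binding protein protease Pappa, had 11.50 and 11.57, against 8.39 and 6.45, and rose by 4.12 ± 0.588 (adjusted p = 0.00343). Its early arrays were far apart, and day 1 was not well above background, which partly sets the size of its rise. Day 3 was low as well, at 6.58. Igfbp6 rose by 2.60 ± 0.242. Igfbp5 had 13.51 and 13.75, against 12.53 and 10.37, and a difference of 2.18 ± 0.64, which was 1.10 without day 1. Its call was lost when either late array was left out (highest adjusted p = 0.172) and with days 3 and 6 in the fit (0.0543).

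In the BMP and TGF-beta pathway 31 of 47 listed members were tested, with a median of 0.59. Of these, 12 rose (38.7%) and 8 fell (25.8%), against 22.4% and 21.8% of all tested genes, so the falls were near the background. A subset of 28 was detected on all 4 arrays, of which 11 rose and 6 fell. Bmpr1b, a receptor of bone morphogenetic proteins, had 5.63 and 5.72 in the late state, against 8.80 and 8.89 in the early state, at least 4.26-fold lower (adjusted p = 5.3e-04). Chrd, the secreted antagonist chordin, had 11.90 and 11.998, against 9.87 and 8.56, and rose by 2.73 ± 0.417 (adjusted p = 0.00422). Grem1, the antagonist gremlin, moved opposite to chordin and was at least 3.58-fold lower, and Nbl1, of the same family of antagonists, rose by 1.87 ± 0.184. In the Wnt pathway 20 of 40 listed members were tested, of which 4 rose (20%) and 5 fell (25%), near the background. Of the 17 detected on all 4 arrays, 5 fell and 3 rose, with a median of -0.22. Nkd2, an inhibitor of the pathway, had 7.78 and 7.84, against 10.23 and 10.39, 5.67-fold lower (adjusted p = 6.1e-04). The ligand Wnt5a fell by 1.83 ± 0.233. Dkk2, a secreted inhibitor, was at least 2.47-fold higher, and its call ended without day 14 (adjusted p = 0.0568) and with days 3 and 6 in the fit (0.0876). The other 3 that rose were Tcf7l2, a nuclear effector of the pathway, at 1.50 ± 0.269, Ccn5 at 1.12 ± 0.251 and Dkk3 at 0.73 ± 0.193. The other 3 that fell were the Wnt target Ccn4, given above, the ligand Rspo3 at -1.35 ± 0.393 and the receptor Fzd5 at -0.76 ± 0.192.

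Most vascular peptide and angiogenic signalling genes rose. Of 31 listed members, 23 were tested, of which 17 rose and 3 fell, with a median of 1.99. Detected throughout were 17, of which 13 rose and 3 fell. Ramp2, the partner of the adrenomedullin receptor, had 14.29 and 14.80 on days 10 and 14, against 9.27 and 10.15 on days 0 and 1, 28.6-fold higher (adjusted p = 4.3e-04). Adm, the vasodilating ligand adrenomedullin, had 15.47 and 15.53, against 12.14 and 12.44, a difference of 3.21 ± 0.158 in the range of the brightest signals. Ligand and receptor partner thus both rose. Angpt2, an angiopoietin, had 11.83 and 12.81, against 8.42 and 8.43, 14.9-fold higher (adjusted p = 7.2e-04). Edn1, the vasoconstrictor endothelin-1, had 14.45 and 14.09, against 11.19 and 10.27, 11.6-fold higher (adjusted p = 8.8e-04). On day 3 Edn1 was still at 11.27, close to day 0. Ramp1, a further receptor partner, rose by 3.77 ± 0.646, and its call ended without day 14 (adjusted p = 0.0579) and with days 3 and 6 in the fit (0.0684). The 3 that fell were Vegfa, the main endothelial growth factor, at -2.13 ± 0.253, the angiopoietin Angpt4 at -1.66 ± 0.375 and the guidance factor Sema3a at -1.11 ± 0.265. The 4 endothelial markers with a probe summed to 1083 and 898 in the late state, against 1560 and 1280 in the early state, and their part here was not tested.

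Among genes of amino acid supply and of the integrated stress response falls outnumbered rises. Of 42 listed members, 32 were tested, of which 17 fell and 1 rose, with a median of -0.996. On all 4 arrays 29 were detected, and of these 15 fell and 1 rose. Slc7a5, a transporter of large amino acids, had 9.99 and 9.38 on days 10 and 14, against 14.04 and 12.39 on days 0 and 1, 11.5-fold lower (adjusted p = 0.00401). Mthfd2, a mitochondrial enzyme of folate metabolism, had 9.73 and 10.13, against 13.81 and 12.68, 9.95-fold lower (adjusted p = 0.00175). In both, day 0 was the highest of the 6 arrays. Mthfd1l, of the same folate pathway, had 7.76 and 7.62, against 11.80 and 11.24, 14.2-fold lower, and Phgdh, the first enzyme of serine synthesis, fell by 2.70 ± 0.248. Phgdh was not well above background on day 10, which partly sets the size of its fall. Slc1a5, a glutamine transporter, was the one that rose, at 2.61 ± 0.202. Trib3, Chac1, Ddit3 and Aldh1l2 had their highest level on day 0 and passed no late against early test with all 4 arrays. From day 0 to day 1 the log2 level changed by -5.74 in Trib3, -3.86 in Chac1, -3.08 in Ddit3 and -3.00 in Aldh1l2. A fit that leaves out an early array takes its spread from the late pair alone and cannot weigh this step. Trib3, a stress-induced pseudokinase, had 9.06 and 7.93 in the late state, against 12.68 and 6.94 in the early state. Ddit3, the stress factor CHOP, had 10.53 and 10.30, against 11.99 and 8.91, so that the late arrays stood between both early ones. Without day 0 the difference was 1.55 in Trib3 and 1.51 in Ddit3, with the sign turned. The promoter of Slc7a11, a cystine transporter at least 2.78-fold lower (adjusted p = 0.011), is shown with TGATGNAA in capitals on either strand. This motif is a form of the element bound by C/EBP and ATF factors, and Slc7a11 fell most among the members that hold it.
Slc7a11 (chr3:50443564-50443863, minus strand): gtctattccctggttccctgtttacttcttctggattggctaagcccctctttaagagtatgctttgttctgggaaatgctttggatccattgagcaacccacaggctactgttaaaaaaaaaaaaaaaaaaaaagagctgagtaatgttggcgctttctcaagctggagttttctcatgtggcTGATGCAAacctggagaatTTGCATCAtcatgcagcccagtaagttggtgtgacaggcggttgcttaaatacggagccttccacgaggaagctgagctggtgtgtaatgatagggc
TGATGNAA was in 5 of 13 promoters of the fallen members (38.5%), against 3.97% of all promoters.

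Most protein folding and ribosome assembly genes fell as well. Of 21 listed endoplasmic reticulum chaperones, 16 were tested, of which 11 fell and 1 rose, with a median of -1.15. Of the 13 detected on all 4 arrays, 9 fell and 1 rose. Hspa5, the chaperone BiP, had 9.52 and 9.53 in the late state, against 11.83 and 11.93 in the early state, 5.13-fold lower (adjusted p = 5.3e-04). Pdia6, a protein disulfide isomerase, fell by 1.98 ± 0.24, and the chaperone Hyou1 was at least 2.89-fold lower. Dnajb9, a co-chaperone of Hspa5, was the one that rose, at 0.87 ± 0.204. Manf, a secreted stress factor, was at least 1.68-fold lower and lost its call without day 10 (adjusted p = 0.0534). Of 30 listed genes of ribosome biogenesis, 24 were tested, of which 16 fell and 0 rose, with a median of -1.15. Detected throughout were 23, of which 15 fell and 0 rose. Nop56, of the nucleolar particles that modify ribosomal RNA, had 9.71 and 9.29, against 11.18 and 11.49, 3.56-fold lower (adjusted p = 0.00236). Srm, the spermidine synthase and no ribosomal factor itself, had 10.39 and 10.18, against 11.93 and 12.42, 3.7-fold lower. Nop56 had passed its late level by day 6, at 9.15, while Srm still stood at 12.05 on day 3. Nop58 and Rrp12, both of ribosome assembly, differed by -1.66 ± 0.248 and -1.76 ± 0.236.

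In energy metabolism, glycolysis and hypoxia genes were called near the background rate, with 26 of 33 listed members tested, of which 4 rose (15.4%) and 7 fell (26.9%), and a median of -0.64. Of these members, 20 were detected on all 4 arrays, of which 6 fell and 3 rose. Hk2, the hexokinase that commits glucose to use, had 10.78 and 10.66 on days 10 and 14, against 13.04 and 12.78 on days 0 and 1, 4.55-fold lower (adjusted p = 6.8e-04). Pgk1, phosphoglycerate kinase, was at least 2.95-fold lower. Ndrg1, a hypoxia-responsive gene, had 11.27 and 11.07, against 9.65 and 6.83, and a difference of 2.93 ± 0.832, which was 1.52 without day 1. It was not well above background on day 1, which partly sets the size of its rise. The other risen members were Adm, given above, the oxygen-sensitive demethylase Kdm3a at 1.52 ± 0.274 and the enolase Eno2 at 1.40 ± 0.224. The call of Ndrg1 was lost when either late array was left out (highest adjusted p = 0.164). Of 50 listed genes of oxidative phosphorylation, 43 were tested, of which 1 rose (2.33%) and 7 fell (16.3%), with a median of -0.31. Both shares were under the background of 22.4% and 21.8%. Of the 42 detected on all 4 arrays, 6 fell and 1 rose. Ndufs8, a subunit of complex I, had 11.24 and 11.50, against 12.34 and 12.42, 2.01-fold lower. Cox5a, of cytochrome oxidase, differed by -0.64 ± 0.183, Uqcrh, of complex III and the one that rose, by 0.61 ± 0.127, and Atp5o, of the ATP synthase, was at least 1.59-fold lower. All 4 calls ended without day 10, and those of Cox5a, Uqcrh and Atp5o also without day 14. With days 3 and 6 in the fit the calls of Ndufs8, Cox5a and Atp5o were lost. With median scaling those of Cox5a, Uqcrh and Atp5o were lost, and without the intensity trend that of Cox5a.

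Among lysosome and detoxification genes rises outnumbered falls. Of 53 listed lysosome and autophagy genes, 45 were tested, of which 22 rose and 1 fell, with a median of 0.69, and Gusb, the lysosomal β-glucuronidase, was the one that fell. Detected throughout were 43, of which 21 rose and 1 fell. Ctsf, a lysosomal cysteine protease, had 11.36 and 11.36 in the late state, against 9.20 and 8.16 in the early state, 6.41-fold higher (adjusted p = 0.00261). Gabarapl1, which sits on autophagosomes, had 14.02 and 13.73, against 11.95 and 11.45, 4.5-fold higher. The early arrays were further apart than the late ones in both genes. Cln3, a lysosomal membrane protein, rose by 2.17 ± 0.304, and the protective protein Ctsa by 2.90 ± 0.516, a call that was lost when either late array was left out (highest adjusted p = 0.0692). Gusb differed by -1.65 ± 0.225 and lost its call without day 10 (adjusted p = 0.0559), and its 2 further probes differed by -0.92 (adjusted p = 0.0484) and -0.51 (adjusted p = 0.202). Of 45 listed glutathione, selenium and redox genes, 39 were tested, of which 19 rose and 7 fell, with a median of 0.54. A subset of 33 was detected on all 4 arrays, of which 15 rose and 7 fell, with a median of 0.30. Aox1, an aldehyde oxidase, had 12.34 and 12.32, against 8.40 and 8.21, 16.3-fold higher (adjusted p = 2.3e-04). Aldh1a1, which makes retinoic acid, had 14.33 and 14.82, against 9.54 and 11.59, 16.1-fold higher (adjusted p = 0.00448), and its day 1 array lay between day 0 and the late arrays.

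Of 18 listed circadian clock genes, 13 were tested, of which 5 rose and 1 fell, with a median of 1.09. Of the 12 detected on all 4 arrays, 5 rose and 1 fell. Per2, a repressor of the clock, had 11.42 and 11.08 on days 10 and 14, against 9.10 and 7.55 on days 0 and 1, 7.59-fold higher, and lost its call without day 10 (adjusted p = 0.0653). Cry2, its partner, differed by 1.59 ± 0.413, and by 0.98 without day 1. Its call was lost when either late array was left out (highest adjusted p = 0.173) and with days 3 and 6 in the fit (0.0519). Rora, a nuclear receptor, differed by 1.69 ± 0.388 on its brightest probe and by 1.10 without day 1, while a further probe differed by -1.35 (adjusted p = 0.0109), so its direction depends on the probe. The call was also lost when either late array was left out (highest adjusted p = 0.117) and with the mean of all its probes (0.668). Tef and Per1 were the other 2 that rose, at 1.55 ± 0.488 and 1.34 ± 0.308. Bhlhe40, a clock repressor and the one that fell, differed by -1.63 ± 0.239 and lost its call with days 3 and 6 in the fit (adjusted p = 0.0801). The time of day at which RNA was taken is not given in the sources used here.

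Among surface markers used to define stromal stem cells falls outnumbered rises. Of 25 listed, 19 were tested, of which 8 fell and 3 rose, with a median of -0.52. Detected throughout were 16, of which 7 fell and 2 rose. Cd44, the hyaluronan receptor, had 10.66 and 11.02 in the late state, against 12.98 and 13.71 in the early state, 5.7-fold lower (adjusted p = 0.00159). Cd34, a sialomucin of progenitors, had 9.02 and 9.51, against 6.49 and 5.79, at least 4.92-fold higher (adjusted p = 0.00133). Cd34 stood at 9.71 and 9.64 on days 3 and 6, at its late level by day 3, and the other 2 that rose were Pdgfra, given above, and Ly6e at 0.52 ± 0.153. The integrin Itgav differed by -2.52 ± 0.214, and by -0.37 on a further probe that was not called (adjusted p = 0.281). The integrin Itga5 differed by -1.98 ± 0.414 and lost its call without day 14 (adjusted p = 0.102). Of 16 listed housekeeping genes, often used to scale other genes, 12 were tested, of which 9 fell and 1 rose, with a median of -0.99. On all 4 arrays 11 were detected, and of these 8 fell and 1 rose. Tfrc, the transferrin receptor of dividing cells, had 9.12 and 7.74, against 10.75 and 10.67, 4.86-fold lower (adjusted p = 0.00927). B2m, the light chain of class I molecules and the one that rose, had 15.46 and 15.56, against 14.43 and 13.94, and rose by 1.32 ± 0.183 within the range of the brightest signals.

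**Figure D4:**
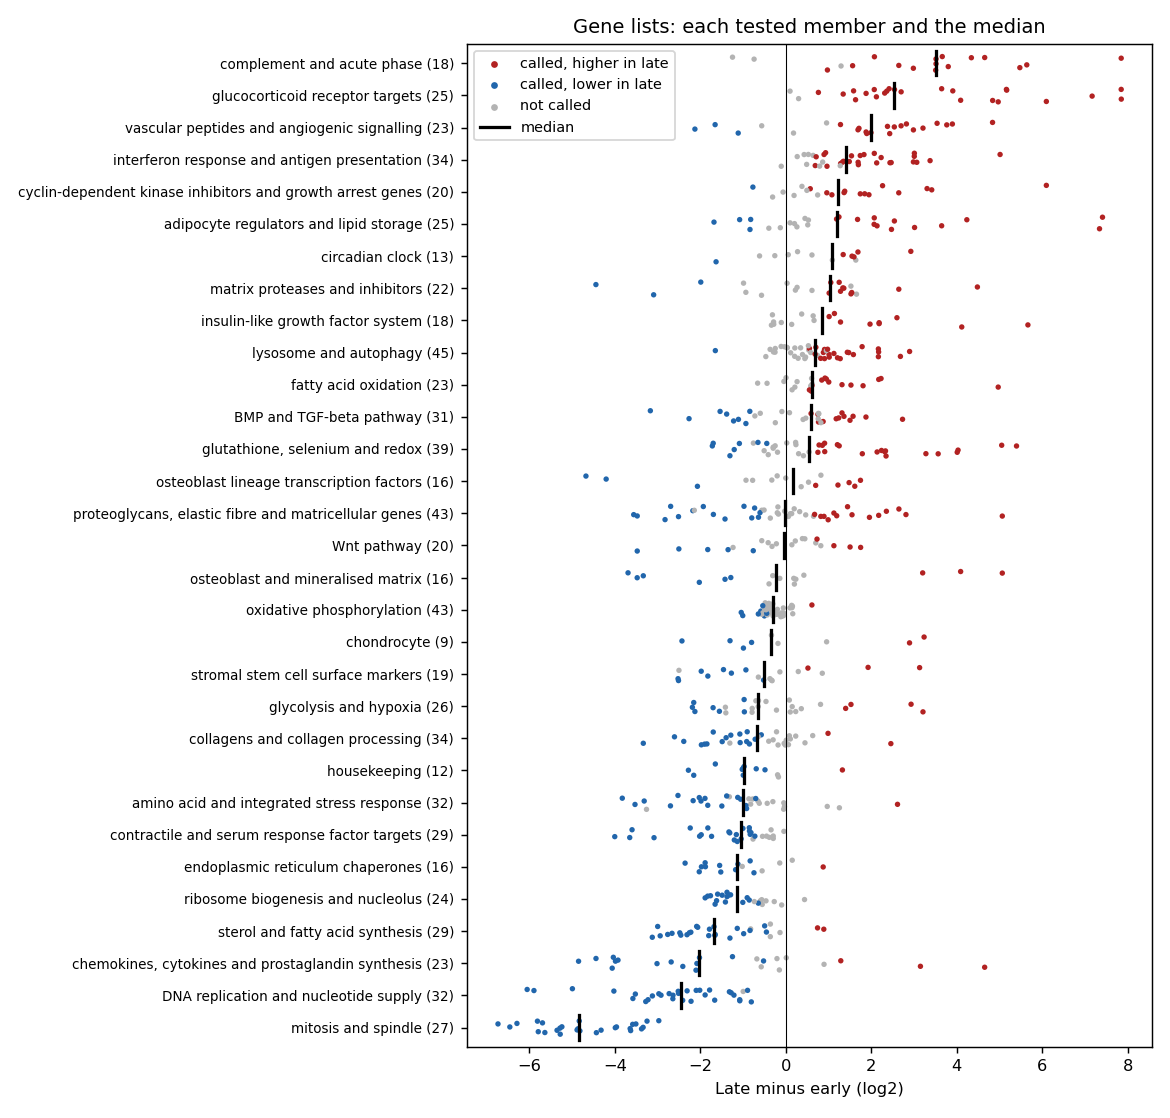
Late minus early difference (log2, horizontal axis) of every tested member of the 31 gene lists, with the number tested in brackets; red points are called higher in the late state, blue points called lower, grey points not called, and the black bar is the list's median. Medians run from -4.83 for mitosis and spindle to 3.51 for complement and acute phase, and all 27 tested mitosis genes lie below -2.9.

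Days 3 and 6 entered neither state, so they show when the change was made. The share of the change is 0% at the early mean and 100% at the late mean. Among the 1360 called genes at least 2-fold higher in the late state, the median share was 40.5% on day 3 and 85.8% on day 6. Among the 1203 at least 2-fold lower, it was 30.2% on day 3 and 76.7% on day 6. At least 50% of the change had been made by day 6 in 94% of the risen genes and 88.4% of the fallen genes. On day 6, 287 risen and 176 fallen genes were past their late level.

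**Figure D5:**
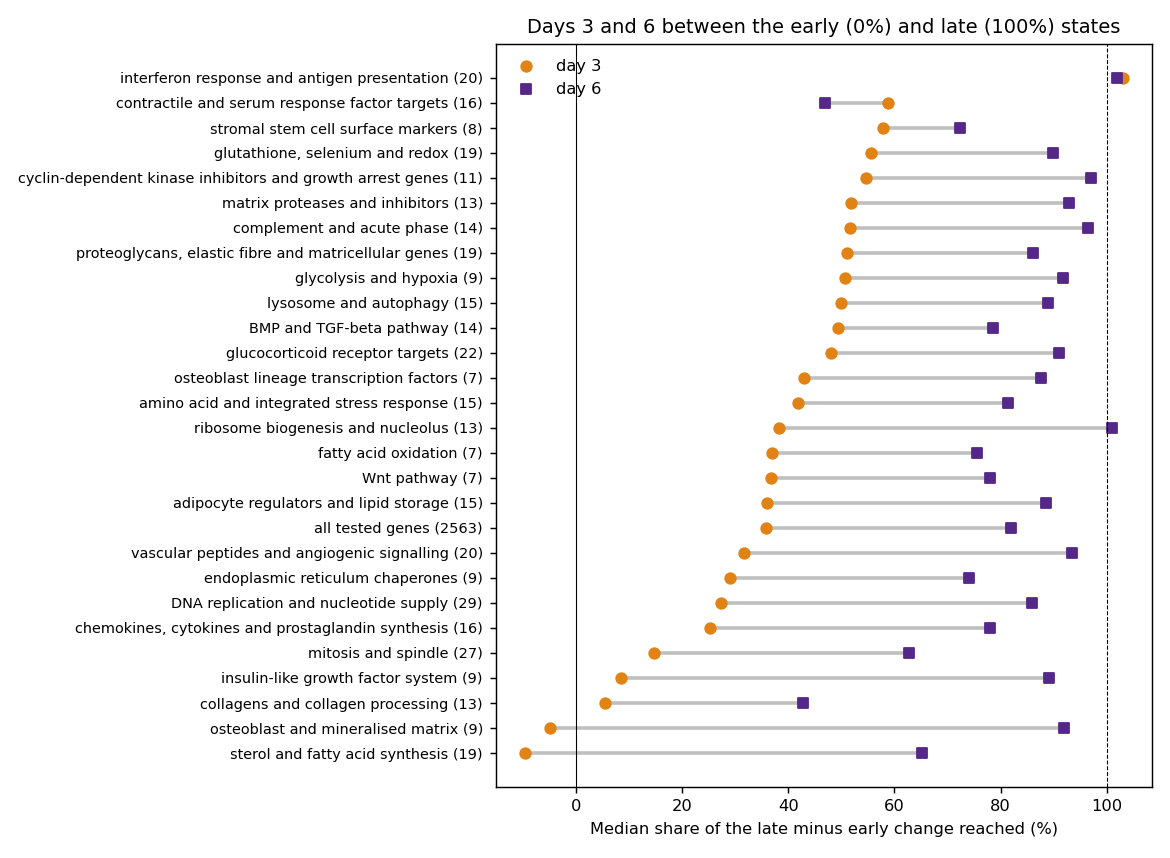
Median share of the late minus early change reached on day 3 (orange circles) and day 6 (purple squares), in percent (horizontal axis), for each list with at least 7 called genes 2-fold or more apart, with the number of such genes in brackets. Interferon response genes had covered 103% on day 3, collagens 5.47% and sterol and fatty acid synthesis -9.55%, against 35.8% over all 2563 such genes.

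Within the late state a few genes still moved. Hpgd, which degrades prostaglandins, had 8.78 and 10.81 on days 10 and 14, against 6.03 and 6.46 on days 0 and 1, at least 7.09-fold higher, with day 14 the higher of the late arrays. Car3, a carbonic anhydrase of fat cells, had 7.19 and 9.18, against 5.09 and 5.26, and was at least 2.33-fold higher. In both, day 14 stood well above day 10, so the word plateau does not hold for them. Npy, a neuropeptide, had 7.98 and 10.15, against 5.24 and 8.20, and did not pass at 2.34 ± 1.08 (adjusted p = 0.124). Cthrc1, a secreted collagen-related protein, had 8.98 and 10.80, against 10.98 and 11.72, and did not pass (adjusted p = 0.0908), while a further probe, detected on 1 of the 4 arrays, differed by -1.54 (adjusted p = 0.0415). Between days 10 and 14 the phosphatase Dusp4, the hypoxia gene Ankrd37, the immediate early factors Egr3 and Maff and the receptor Tfrc had the 5 largest falls among tested genes detected on both late arrays. Of these, Tfrc was called late against early, as given above, and the other 4 were not. Dusp4 had 10.58 and 8.81 in the late state, against 10.02 and 10.81 in the early state, and a further probe of it differed by -1.29 (adjusted p = 0.0493). Within the early state the arrays of Crct1 lay far apart. It had 5.18 and 5.52 in the late state, against 7.47 and 9.77 in the early state, at least 3.63-fold lower. Its fitted difference was -3.27, or -2.12 without day 1, and its call was lost when either late array was left out (highest adjusted p = 0.101). Wnt2, a Wnt ligand, had 9.01 and 10.17, against 7.67 and 10.10, with overlapping states (adjusted p = 0.505). Dbp, a clock output gene, had 11.23 and 11.40, against 11.83 and 8.63, and day 0 lay above both late arrays (adjusted p = 0.381).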

How the data were processed

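The deposited non-normalized table gives, per the file headers, a probe intensity and a detection p-value for each of the 6 arrays, with 46649 rows. The authors' series matrix held the same intensity values for 17785 probes of each array, within 1e-05. A deposited table of fold scores by the authors was used only as an alternative. How the scanner values were background-subtracted and how that fold table was scaled is not given in the sources used here. Days were assigned to the coded columns of the intensity table through the series matrix. From the intensities, nec and quantile normalization in limma 3.58.1 (R 4.3.3, offset 16) gave log2 values. Of 46613 probes 13805 had 1 gene symbol, 3 had several and the rest had none here, giving 9751 genes, each read from its brightest probe. Symbols were available only for probes of the series matrix. All 17785 of these that were compared had a detection p under 0.05 on at least 1 array. The 8802 genes with a detection p under 0.01 on at least 1 of the 4 arrays entered one limma fit with an intensity trend and 2 residual degrees of freedom. P-values were adjusted by Benjamini-Hochberg over all 8802 genes, and 4681 genes had an unadjusted p under 0.05. A called gene has an adjusted p under 0.05, and ± marks the standard error of a difference. On the 6 arrays 12891 to 13980 probes were detected, and precision is limited by how few arrays there are. The fit was tested on simulated data.

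Genes were named by a rule: the 15 largest rises and the 15 largest falls that were called with a signal on each of the 4 arrays, the 8 largest bounds each way, 4 members of each list, the 5 largest steps each way within each state, 5 genes above and 5 below the 4 arrays on days 3 and 6, and a set of bone, fat and cartilage genes. The members, the 31 gene lists and the marker lists were chosen with earlier results of these data known. Genes outside the rule, such as the exceptions of a list, were chosen after their values were seen and were not taken through the alternatives one by one. Promoters were read from RefSeq on GRCm38.p6, without chromosomes not used here, and no genome position is given for the array's probes.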

Additional observations from a re-analysis of the deposited data

Results flagged for a closer look

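Of 9751 genes, 13 were detected on both day 3 and day 6 and on none of days 0, 1, 10 and 14. Slfn2, a regulator of immune cell quiescence, had log2 levels of 9.02 and 7.69 on days 3 and 6. Cbr2, a carbonyl reductase, had 7.14 and 7.91. The other 11 were Ddc, Sdk1, Pcbd1, Trps1, 9130023H24Rik, Tgm1, Fer, Ppp4r1l-ps, Cacna2d2, P2rx7 and Nlrx1. Several of these lay close to the detection threshold: Cacna2d2 had 6.94 and 6.93 on days 3 and 6, against 6.84 on day 0, and Nlrx1 had 6.91 and 6.93, against 6.70 on day 0. Each day has 1 array, and these values were not tested. With 2 arrays a state, no search for an array far from its group was possible.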

How the results depend on the processing

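The direction of all 148 called genes among the 170 named held under every alternative that included them. The limit to genes detected on all 4 arrays included 95. Late and early arrays did not overlap in these genes, so leaving out 1 array could not turn their sign. Days 3 and 6 in the fit, a looser filter or no intensity trend could not turn it either, since they leave the difference unchanged. Of the 148, 23 lost the call under at least 1 alternative, 12 of them under an alternative other than leaving out an array. Leaving out 1 array gave 655 to 2477 genes higher, 547 to 2410 lower, and at least 2-fold apart 653 to 1518 higher and 542 to 1399 lower. In these fits the lone array is assumed to vary like the pair that remains. With days 3 and 6 in the fit there were 1573 higher and 1475 lower, all 3048 among the calls of the fit with 4 arrays. Limiting the test to genes detected on all 4 arrays left 834 at least 2-fold higher. The steps of neighbouring arrays then held 339, 732, 563, 235 and 47 genes in order of time. Without background correction the steps from days 0, 1, 6 and 10 held 334, 788, 236 and 40. Median scaling gave 53.7% rises among the calls, against 50.7%, with a median shift of 0.02. Against the authors' deposited table of fold scores 71 of the 148 moved by more than the spread, none in direction. No paired analysis was possible because the labels give no replicate numbers.

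The sign of the late minus early difference turned in 15 uncalled genes when 1 array was left out. The values ran from -1.61 to 0.17 in Dusp4, -0.10 to 1.73 in Ankrd37, -1.17 to 0.22 in Egr3, -1.16 to 0.20 in Maff and -1.26 to 0.56 in Myh11. They ran from -4.19 to 1.55 in Trib3, -1.57 to 1.51 in Ddit3, -0.51 to 2.69 in Dbp, -0.51 to 1.91 in Wnt2 and -0.37 to 0.37 in Dnah1. They ran from -0.17 to 0.25 in Itm2a, -0.26 to 0.65 in Sncg, -0.68 to 0.036 in Alcam, -0.36 to 0.096 in Mycl and -0.060 to 0.049 in Kcmf1. Median scaling turned Ddit3 (0.032) and Kcmf1 (0.043). List medians near 0 turned as well. Without 1 array glycolysis and hypoxia ran from -1.02 to 0.0045, and proteoglycan and matricellular genes from -0.16 to 0.22. With the mean of all probes that matrix list had 0.061 and the Wnt pathway 0.15, and with a detection p under 0.05 or no filter osteoblast factors had -0.10. The cause was not tested. Of 57 further detected probes of called genes, 3 differed in sign (Cldn10, Hif3a, Rora), and others in size. A gene below background throughout a state has only a bound, which limits the dim genes.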

Other observations

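Some genes passed through a middle state that the late and early arrays do not show. Itm2a, a membrane protein of differentiating mesenchymal cells, stood at 12.80 and 11.60 on days 3 and 6, with 10.15 and 10.58 in the late state, against 10.39 and 10.26 in the early state. Its late minus early difference was only 0.04 ± 0.221. Sncg, the gamma member of the synuclein family, had 10.50 and 9.15 on days 3 and 6 and 7.81 and 8.02 on days 10 and 14, against 8.18 and 7.27 on days 0 and 1. Dnah1, a dynein heavy chain, had 8.50 and 8.15 on the middle days, and its 4 other arrays lay between 6.03 and 6.77. These 3 genes were not called between the states.

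Ifi27l2a, an interferon-induced gene, had 11.49 and 12.27 on days 3 and 6, above its late levels of 10.29 and 10.44, which in turn lay above 7.86 and 7.75 in the early state. Kng2, a kininogen gene, had 9.34 and 8.95 on the middle days and was at least 1.44-fold higher in the late state than in the early one. In the other direction, Alcam, a cell adhesion molecule of stromal cells, had 6.04 and 7.03 on days 3 and 6 and 8.04 and 8.76 in the late state, against 8.43 and 9.01 in the early state. Mycl, a relative of Myc, had 6.59 and 7.74 on the middle days and 8.65 and 8.53 in the late state, against 8.94 and 8.49. Kcmf1, Ufd1 and Aatf were below the range of the 4 other arrays on both middle days by smaller steps. Each middle day has 1 array, so no test was made of these values.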
